A study of Mus musculus with 14 samples.

Results

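Hnf4a, Foxa1, Foxa2, Foxa3, Onecut1, Onecut2, Cebpa and Prox1 are transcription factors of the liver lineage. These 8 genes were picked out by symbol from a deposited table of 20377 gene symbols, and a symbol listed more than once would have been represented by its most abundant row. Each of the 8 had a single row, and all 8 were among the 12638 symbols that were tested, those reaching 1 RPKM in 4 libraries or more. RPKM is a read number corrected for transcript length and for library size.

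The 3 cell populations all came from livers of C57BL/6 mice that received 0.1% DDC, a dihydrocollidine toxicant that damages bile ducts and provokes a ductular reaction, for 5 to 8 weeks. The mice were chimeras in which mature hepatocytes carried a red fluorescent marker, mTomato, and the labels call the marked cells donor and the unmarked ductal cells host. Hepatocyte-derived ductal cells (5 libraries) were sorted as positive for the ductal surface antigen MIC1-1C3 and for mTomato, negative for CD11b, CD26, CD31 and CD45, and low in side scatter. Cholangiocyte-derived ductal cells (5 libraries) passed the same gate and lacked mTomato. Hepatocytes (4 libraries) were isolated from DDC-treated livers too, so no group here is uninjured, and origin is defined by the red marker alone. The labels do not state which libraries share a mouse, so the p-values below measure the spread between these samples, which may be technical. In sorted bulk RNA, fewer cells that express a gene and less RNA per cell cannot be told apart.

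As background, these factors form a network of mutual regulation that builds and maintains liver identity. The Foxa proteins are forkhead factors that open chromatin before hepatic genes are active, Hnf4a is the nuclear receptor that drives most hepatocyte metabolic genes, and Cebpa sustains the mature, quiescent hepatocyte. The Onecut factors and Prox1 act early in the liver bud, where Onecut1 is also needed for bile duct formation and Prox1 for hepatoblast migration, and Prox1 serves as a corepressor of nuclear receptors in the adult.

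The promoters of the members are shown for the genes whose levels set the ductal populations apart or that differ within the Foxa family. RefSeq promoter windows (GRCm38.p6) were taken for 7 of the 8 members, in 11 windows, and the search did not cover Onecut2. Each window below holds the 250 bases before a gene start, 5′ to 3′ on the gene's strand, with motif matches in capitals. Motifs were searched on both strands. ATTGAT is a core of Onecut sites and TGTTTAC a forkhead core. CAAAGTCCA is an HNF4 site, TTGCGCAA the palindromic site of C/EBP factors and TATAAA the TATA box. Hnf4a has 2 starts, the upstream P2 (chr2:163506607-163506856, plus strand) and P1 (chr2:163546905-163547154, plus strand), which lie 40298 bases apart. The Foxa1 window is chr12:57546112-57546361 and that of Foxa3 is chr7:19023540-19023789, both on the minus strand.
Hnf4a P2: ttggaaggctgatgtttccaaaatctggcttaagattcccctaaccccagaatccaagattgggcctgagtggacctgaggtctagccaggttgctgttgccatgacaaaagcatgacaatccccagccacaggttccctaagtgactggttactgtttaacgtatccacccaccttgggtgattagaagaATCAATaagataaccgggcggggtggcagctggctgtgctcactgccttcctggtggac
Hnf4a P1: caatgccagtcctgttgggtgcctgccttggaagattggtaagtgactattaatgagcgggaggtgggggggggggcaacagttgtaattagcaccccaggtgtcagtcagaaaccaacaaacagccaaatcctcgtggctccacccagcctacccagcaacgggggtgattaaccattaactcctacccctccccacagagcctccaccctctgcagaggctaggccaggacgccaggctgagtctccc
Foxa1: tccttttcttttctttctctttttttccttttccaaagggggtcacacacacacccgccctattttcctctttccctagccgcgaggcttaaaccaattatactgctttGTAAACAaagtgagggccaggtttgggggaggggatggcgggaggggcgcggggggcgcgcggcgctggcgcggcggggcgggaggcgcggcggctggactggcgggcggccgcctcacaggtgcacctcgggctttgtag
Foxa3: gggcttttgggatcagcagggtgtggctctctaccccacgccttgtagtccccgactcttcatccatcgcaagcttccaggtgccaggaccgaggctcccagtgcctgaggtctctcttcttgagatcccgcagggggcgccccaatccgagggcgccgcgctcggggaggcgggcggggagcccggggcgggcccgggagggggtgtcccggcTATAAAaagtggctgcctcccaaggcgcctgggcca

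The P2 window of Hnf4a held an Onecut match at -59 to -54 counted from the start, and the P1 window, shown for the start that the table's row uses, held none of these motifs. Foxa1 held a forkhead match at -141 to -135 and Foxa3 a TATAAA at -36 to -31. None of these overlapped. Of 32851 RefSeq windows of the same length, 6.72% held the Onecut motif, 3.17% the forkhead motif and 12.4% TATAAA on either strand. Of the 11 member windows, 2 held the Onecut motif (Hnf4a and Foxa2), 1 the forkhead motif (Foxa1) and 4 TATAAA (Prox1, Foxa2, Foxa3 and Cebpa). The HNF4 and C/EBP motifs, held by 0.384% and 0.164% of all windows, matched none of the 11 member windows. These are matches of letters, not measured binding. The row of Hnf4a in the expression table (NM_008261, mm9, chromosome 2, 163372924 to 163398643, plus strand) spans 25720 bases, against 25753 from P1 to the gene end and 66051 from P2 in GRCm38, so its length is that of the P1 form. The 2 forms share most exons, and reads of shared exons do not tell them apart.

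Depth, estimated from the values, ran from 22900000 to 32150000 reads in a library, at which 1 read on a transcript of 1000 nt is worth 0.0311 to 0.0437 RPKM, and the lowest value of any member was 4.01 RPKM. Hepatocyte libraries summed to 571313 to 670030 RPKM and ductal ones to 456776 to 494758. Defining transcripts fitted the 3 labels: 10 hepatocyte markers summed to 45795 to 62990 RPKM in hepatocytes, 5146 to 10034 in hepatocyte-derived and 3174 to 4608 in cholangiocyte-derived ductal cells, and 9 biliary markers to 627 to 1422, 16884 to 19671 and 20786 to 22340. The biliary sums were mostly Spp1 (16080 to 18846 in hepatocyte-derived and 17997 to 19491 in cholangiocyte-derived ductal cells). Spp1 and Sox9 overlapped between the ductal groups. All other biliary markers were lower in every hepatocyte-derived library, as in Krt19 (23.4 to 81.8 against 588 to 743) and Epcam (60.8 to 136 against 501 to 633). Hepatocyte library 118 stood apart, with 11 macrophage markers summing to 1363 RPKM against 29.4 to 39.5 in the other hepatocyte libraries and 10 endothelial markers to 218 against 5.4 to 15.0. Among cholangiocyte-derived libraries, 118 had the highest macrophage sum (404, lowest 50.0 in 219), and hepatocyte-derived ones ranged from 25.5 to 155. Neutrophil markers peaked at 149.7 RPKM (cholangiocyte-derived 118). The stellate and fibroblast sum of hepatocyte-derived libraries (968 to 1624) was mostly Rgs5 (953 to 1613). Cholangiocyte-derived libraries summed to 507 to 882, and among them 220 held the most Col3a1 (135, median of the group 20.2) and Col1a1 (84.2, median 10.3), the fibrillar collagen genes. Hepatocyte library 118 summed to 59.2 against 8.68 to 16.4 in the other hepatocyte libraries. Lymphocyte, erythroid and platelet sums stayed at or under 2.68, 29.7 and 16.4.

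**Figure D1:**
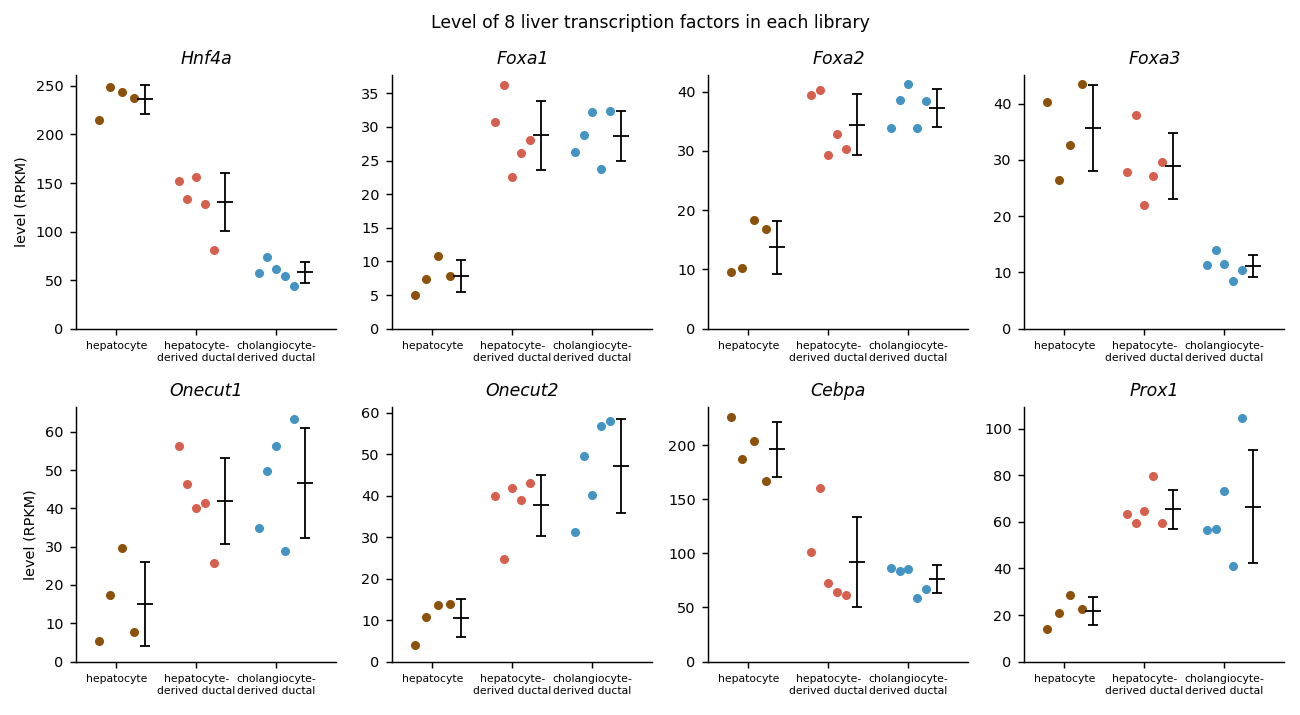
RPKM of the 8 factors (vertical axes, linear from 0) in each of the 4 hepatocyte, 5 hepatocyte-derived ductal and 5 cholangiocyte-derived ductal libraries. Points are libraries and bars the mean ± SD. Hnf4a falls into 3 separate ranges, Foxa3 of hepatocyte-derived ductal cells overlaps with hepatocytes, and Foxa1, Foxa2, Onecut2 and Prox1 of both ductal groups lie above all hepatocyte libraries.

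Hnf4a, the nuclear receptor, had 3 separate levels: highest in hepatocytes, intermediate in hepatocyte-derived ductal cells and lowest in cholangiocyte-derived ductal cells. Hepatocyte libraries 118, 225, 248 and 611 held 214.53, 248.37, 244.08 and 238.04 RPKM. Hepatocyte-derived ductal libraries 219, 220, 225, 248 and 611 held 151.85, 133.9, 156.47, 128.56 and 80.67. Cholangiocyte-derived ductal libraries 118, 219, 220, 225 and 611 held 57.43, 74.04, 61.31, 54.68 and 44.26. No library of any group reached into the range of another, and library 611 was the lowest in both ductal groups.

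The means were 236 ± 15.1 RPKM in hepatocytes (SD, n = 4), 130.3 ± 30.1 in hepatocyte-derived (n = 5) and 58.3 ± 10.8 in cholangiocyte-derived ductal cells (n = 5). Against hepatocytes, Hnf4a of hepatocyte-derived ductal cells was 1.81-fold lower, a log2 fold change of -0.89 ± 0.18 (SE, limma, adjusted p = 3.15e-04), and quantile normalization left -0.45 with an adjusted p of 0.0523. It was 4.05-fold lower in cholangiocyte-derived ductal cells than in hepatocytes (-2.02 ± 0.18, adjusted p = 6.23e-08). Between the ductal populations it was 2.23-fold higher in the hepatocyte-derived one (1.13 ± 0.17, adjusted p = 8.77e-05). Both ductal comparisons use the same 4 hepatocyte libraries.

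Hepatocyte transcripts in the ductal sorts stood beside this. Hnf4a of hepatocyte-derived ductal cells was at 55.1% of the hepatocyte mean, where the 10 summed hepatocyte markers were at 13.5% and Alb at 13.1%. In cholangiocyte-derived ductal cells Hnf4a was at 24.7%, the markers at 7.85% and Alb at 8.07%. Within the hepatocyte-derived group, library 219 had the lowest marker sum (5146) and the next to highest Hnf4a, while library 611 had a higher sum and the lowest Hnf4a. The part of hepatocyte RNA in the Hnf4a level was not tested further.

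**Figure D2:**
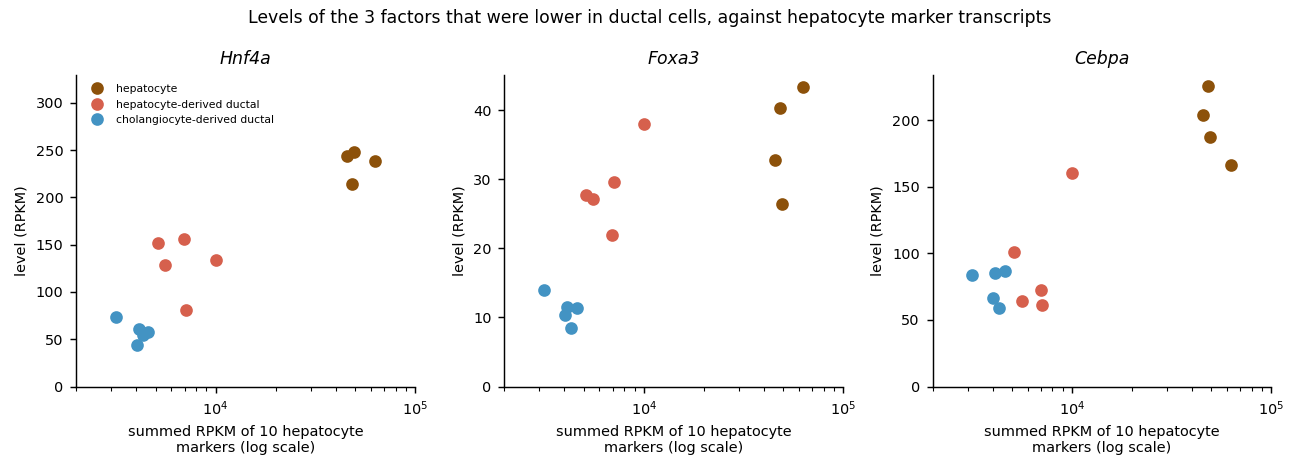
RPKM of Hnf4a, Foxa3 and Cebpa (vertical axes) against the summed RPKM of 10 hepatocyte markers (horizontal, log scale) in the 14 libraries, coloured by group. Hepatocyte-derived ductal libraries hold marker sums of 5146 to 10034, far below the 45795 to 62990 of hepatocytes, while their Foxa3 reaches hepatocyte levels, and library 220 has the highest sum of its group together with its highest Foxa3 and Cebpa.

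The 3 Foxa genes did not move together. Foxa1 and Foxa2 were higher in both ductal populations than in hepatocytes and passed no test between the ductal populations. Foxa3 was lower in cholangiocyte-derived ductal cells than in the other groups, and its difference between hepatocyte-derived ductal cells and hepatocytes did not pass the test.

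Foxa1 (NM_008259, mm9, chromosome 12, 58641619 to 58647108, minus strand) held 5.01, 7.4, 10.86 and 7.9 RPKM in the hepatocyte libraries. In hepatocyte-derived ductal libraries, in the order given above, it held 30.78, 36.24, 22.55, 26.13 and 28.11. In cholangiocyte-derived ones it held 26.24, 28.78, 32.2, 23.75 and 32.32. Every ductal library lay above every hepatocyte library, and the ductal groups shared a range. Relative to hepatocytes Foxa1 was 3.69-fold higher in hepatocyte-derived ductal cells (log2 fold change 1.78 ± 0.17, adjusted p = 2.74e-07) and 3.68-fold higher in cholangiocyte-derived ones (1.79 ± 0.17, adjusted p = 2.06e-07). The 95% interval of the fold between the ductal groups ran from 0.781 to 1.28.

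Foxa2 (NM_010446, mm9, chromosome 2, 147868614 to 147872705, minus strand), needed together with Foxa1 for liver specification, held 9.51, 10.29, 18.33 and 16.79 RPKM in hepatocytes. It held 39.44, 40.32, 29.28, 32.92 and 30.35 in hepatocyte-derived ductal libraries. It held 33.93, 38.54, 41.3, 33.84 and 38.48 in cholangiocyte-derived ones. As with Foxa1, the ductal libraries overlapped one another and none overlapped hepatocytes. The differences from hepatocytes were 1.31 ± 0.17 (adjusted p = 5.71e-06) and 1.42 ± 0.17 (adjusted p = 1.98e-06) on the log2 scale, and the interval of the fold between the ductal groups was 0.726 to 1.17.

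Foxa3 (NM_008260, mm9, chromosome 7, 19598632 to 19608888, minus strand), the family member most tied to glucose metabolism of the adult hepatocyte, held 40.26, 26.42, 32.72 and 43.41 RPKM in hepatocytes. Hepatocyte-derived ductal libraries held 27.76, 37.95, 21.99, 27.18 and 29.6. Cholangiocyte-derived ductal libraries held 11.37, 13.93, 11.44, 8.44 and 10.39. The cholangiocyte-derived libraries were all below both other groups, and the other two groups overlapped.

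Foxa3 was 2.60-fold higher in hepatocyte-derived than in cholangiocyte-derived ductal cells (1.30 ± 0.16, adjusted p = 1.63e-05) and 3.21-fold lower in cholangiocyte-derived ductal cells than in hepatocytes (-1.59 ± 0.17, adjusted p = 5.55e-07). Against hepatocytes, hepatocyte-derived ductal cells differed by -0.29 ± 0.17 (adjusted p = 0.127), an interval of 0.634 to 1.05 in fold. That last comparison turned on scaling: a median-ratio rescaling gave -0.93 (adjusted p = 2.75e-04), quantile normalization -0.62 (0.00413) and equal summed RPKM 0.012 (0.949). Leaving out hepatocyte-derived library 220 gave -0.39 (adjusted p = 0.0413) and leaving out hepatocyte library 225 gave -0.42 (0.0335).

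A share within a library does not depend on how libraries are scaled. Foxa3 made up 62.5 ± 8.61% of the summed Foxa1, Foxa2 and Foxa3 RPKM in hepatocytes, 31.3 ± 2.23% in hepatocyte-derived and 14.4 ± 1.99% in cholangiocyte-derived ductal cells. The ranges were 52.9 to 73.5%, 28.3 to 33.6% and 12.8 to 17.1%, so that the groups did not overlap. Each of the 3 differences had an adjusted p of 0.0381 (two-sided exact permutation test, adjusted over 4 shares in 3 comparisons), and the unadjusted values, 0.0159 with 5 against 4 libraries and 0.00794 with 5 against 5, are the smallest the test can give. The Foxa sum was 57.2 ± 10.3 RPKM in hepatocytes, 92.1 ± 15.2 in hepatocyte-derived and 77.0 ± 7.89 in cholangiocyte-derived ductal cells.

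**Figure D3:**
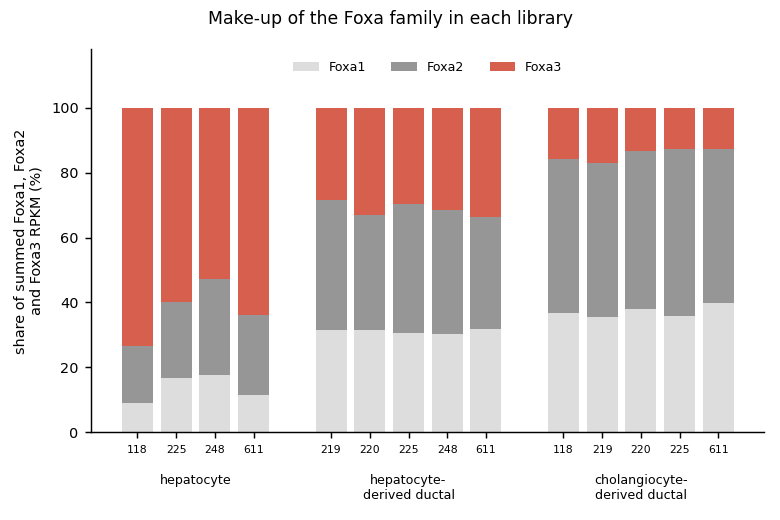
Shares (%) of Foxa1, Foxa2 and Foxa3 in their summed RPKM (vertical axis), one stacked bar per library with its number (horizontal axis). The Foxa3 share steps from 52.9 to 73.5% in hepatocytes to 28.3 to 33.6% in hepatocyte-derived and 12.8 to 17.1% in cholangiocyte-derived ductal libraries.

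Both Onecut genes were several-fold higher in the ductal populations than in hepatocytes, with a wide spread among hepatocyte libraries. Onecut1 (NM_008262, mm9, chromosome 9, 74709728 to 74737454, plus strand), also called HNF6, held 5.35, 17.45, 29.54 and 7.71 RPKM in hepatocytes. Hepatocyte-derived ductal libraries held 56.25, 46.44, 40.01, 41.41 and 25.63. Cholangiocyte-derived ductal libraries held 34.96, 49.86, 56.2, 28.94 and 63.42. Hepatocyte library 248 lay above hepatocyte-derived library 611 and cholangiocyte-derived library 225, so the ranges overlapped with both ductal groups. Onecut1 was higher by 1.65 ± 0.39 in hepatocyte-derived (adjusted p = 0.00136) and by 1.79 ± 0.39 in cholangiocyte-derived ductal cells (adjusted p = 6.77e-04). The interval of the fold between the ductal groups was 0.524 to 1.58.

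Onecut2 (NM_194268), which overlaps Onecut1 in function, held 4.01, 10.73, 13.6 and 13.82 RPKM in hepatocytes. Hepatocyte-derived ductal libraries held 39.83, 24.74, 41.84, 39.02 and 42.98. Cholangiocyte-derived ductal libraries held 31.34, 49.46, 40.12, 56.88 and 58.13. All ductal libraries exceeded all hepatocyte libraries, and library 220 was low among the hepatocyte-derived ones. The differences from hepatocytes were 1.84 ± 0.29 (adjusted p = 4.07e-05) and 2.15 ± 0.29 (adjusted p = 7.58e-06). Onecut2 differed between the ductal groups by -0.31 ± 0.28 (adjusted p = 0.434).

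With the library number as a block, the ductal difference of Onecut2 was -0.51 with an adjusted p of 0.0230, lower in hepatocyte-derived cells. The block leaves out both 220 libraries, and hepatocyte-derived library 220 had the lowest Onecut2 of its group. The ductal difference was -0.55 (adjusted p = 0.0209) without the 3 libraries richest in transcripts of other cells (cholangiocyte-derived 118 and 220, hepatocyte 118). The Onecut sum was 25.6 RPKM in hepatocytes, 79.6 in hepatocyte-derived and 93.9 in cholangiocyte-derived ductal cells. Onecut1 took 55.8 ± 14.1%, 52.3 ± 10.5% and 49.4 ± 9.29% of it, and none of these shares differed beyond the spread (exact permutation tests, adjusted p = 0.727 in each comparison).

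Cebpa (NM_007678, mm9, chromosome 7, 35904312 to 35906951, plus strand), the leucine zipper factor of mature hepatocytes, was lower in both ductal populations. Hepatocyte libraries held 226.04, 187.47, 204.04 and 166.62 RPKM. Hepatocyte-derived ductal libraries held 101.39, 160.66, 72.21, 63.97 and 61.56. Cholangiocyte-derived ductal libraries held 86.44, 83.61, 85.36, 59.04 and 66.72. No ductal library reached the hepatocyte range, and hepatocyte-derived library 220, the one richest in hepatocyte markers, was the nearest to it.

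Cebpa was 2.13-fold lower in hepatocyte-derived (-1.17 ± 0.24, adjusted p = 3.60e-04) and 2.57-fold lower in cholangiocyte-derived ductal cells than in hepatocytes (-1.36 ± 0.24, adjusted p = 8.80e-05). It differed between the ductal groups by 0.18 ± 0.22 (adjusted p = 0.572), with an interval of the fold of 0.814 to 1.59. Myeloid cells also express Cebpa, and hepatocyte library 118, which holds the macrophage transcripts, had the highest Cebpa. It is also the only hepatocyte library of the first column header style described below, so macrophage RNA and style cannot be told apart. The part of macrophage RNA in the Cebpa level was not tested. Without the 3 libraries named above the differences from hepatocytes were -1.10 and -1.41.

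The table's column headers follow 2 naming styles, and Cebpa differed by style without overlap in both ductal groups. Ductal headers lack the antigen name in the first style (libraries 118, 219 and 220) and carry it in the second (225, 248 and 611). No hepatocyte header carries it. Hepatocyte libraries were assigned by the capital letter of Hep in 118 against lower case in 225, 248 and 611. In the first style, Cebpa was 101.39 and 160.66 RPKM in hepatocyte-derived and 83.61 to 86.44 in cholangiocyte-derived ductal cells. In the other style (225, 248 and 611) it was 61.56 to 72.21 and 59.04 to 66.72. Other members split by style in 1 ductal group. In hepatocyte-derived cells Foxa1, Foxa2 and Onecut1 were higher in the first style without overlap. In cholangiocyte-derived cells Hnf4a (57.43 to 74.04 against 44.26 to 54.68) and Foxa3 (11.37 to 13.93 against 8.44 to 10.39) were higher in it. Onecut2 of cholangiocyte-derived cells was lower in it (31.34 to 49.46 against 56.88 to 58.13). Within the second style alone, Cebpa was lower than in hepatocytes by -1.48 (adjusted p = 3.42e-06) and -1.55 (adjusted p = 4.23e-06), and the other members kept their calls except that Onecut1 of hepatocyte-derived cells against hepatocytes gave 1.08 (adjusted p = 0.0537) and Onecut2 between ductal groups -0.47 (adjusted p = 0.0166). What the styles stand for is not given in the sources used here.

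Cebpb, a related factor induced in acute-phase and regenerative states, stood at 128 ± 34.1 RPKM in hepatocytes, 48.5 ± 10.03 in hepatocyte-derived and 51.0 ± 17.0 in cholangiocyte-derived ductal cells. It was lower by -1.37 ± 0.25 (adjusted p = 1.22e-04) and -1.34 ± 0.25 (adjusted p = 1.38e-04). The Cebpa share of the Cebpa and Cebpb sum was 60.7, 63.7 and 60.5% in these groups, and none of its differences exceeded the spread between libraries (exact permutation tests, adjusted p = 0.727 to 0.984).

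Prox1 (NM_008937, mm9, chromosome 1, 191945658 to 191994559, minus strand), the homeobox factor, was higher in both ductal populations than in hepatocytes. Hepatocyte libraries held 14.09, 20.9, 28.72 and 22.56 RPKM. Hepatocyte-derived ductal libraries held 63.58, 59.74, 64.54, 79.95 and 59.56. Cholangiocyte-derived ductal libraries held 56.62, 57.14, 73.32, 41.15 and 104.74. Every ductal library exceeded every hepatocyte library, and the cholangiocyte-derived libraries spread the most, around the narrow range of the hepatocyte-derived ones.

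The differences from hepatocytes were 1.59 ± 0.23 (3.04-fold, adjusted p = 1.67e-05) and 1.55 ± 0.23 (3.09-fold, adjusted p = 1.86e-05). Prox1 differed between the ductal groups by 0.037 ± 0.22 (adjusted p = 0.920), with an interval of the fold of 0.741 to 1.42. Prox1 is also a defining factor of lymphatic endothelium. Of 6 lymphatic markers, Ccl21a was listed at 0 in all 14 libraries and Mmrn1 at 0 in all hepatocyte-derived ductal ones. The 6 summed to 3.94 to 21.2 RPKM in hepatocytes, 12.2 to 18.0 in hepatocyte-derived and 37.1 to 43.7 in cholangiocyte-derived ductal cells, mostly Pdpn in the last (17.6 to 30.1). The part of lymphatic RNA in the Prox1 level was not tested.

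Counted together, against hepatocytes 5 members were called higher in the hepatocyte-derived ductal population (Foxa1, Foxa2, Onecut1, Onecut2 and Prox1), 2 lower (Hnf4a and Cebpa) and 1 was not called. Among all tested genes 66.2% were called higher and 14.8% lower in that comparison. In cholangiocyte-derived ductal cells 5 were higher and 3 lower (Hnf4a, Foxa3 and Cebpa), against 67.1% and 17.4% of all tested genes. With most genes higher in ductal cells, 5 of 8 members higher is close to the background. Between the ductal populations 2 were higher in the hepatocyte-derived one (Hnf4a and Foxa3), none was lower and 6 were not called, against 15.1% higher and 21.0% lower of all tested genes.

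In the first comparison the library ranges of 4 members lay wholly above and of 2 wholly below hepatocytes, against 59.9% and 12.4% of tested genes. In the second they lay above for 4 and below for 3, against 60.5% and 14.7%. From one ductal group to the other 2 lay above and none below, against 13.4% and 20.4%. The median difference of the members was 1.45, 1.49 and 0.017 on the log2 scale in the 3 comparisons, where that of all tested genes was 0.67, 0.76 and -0.029.

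The all-gene shift in the hepatocyte comparisons depended on scaling. A median-ratio rescaling lowered it to 0.15 and 0.23 and moved the calls of hepatocyte-derived ductal cells from 8363 higher and 1873 lower to 5462 and 3925, and quantile normalization to 4596 and 4136. Under the median-ratio rescaling the members of hepatocyte-derived ductal cells kept their directions, from -1.82 (Cebpa) and -1.54 (Hnf4a) to 1.24 (Onecut2), 1.19 (Foxa1), 1.04 (Onecut1), 0.96 (Prox1) and 0.69 (Foxa2). Those of cholangiocyte-derived ductal cells ran from -2.66 (Hnf4a), -2.21 (Foxa3) and -1.999 (Cebpa) to 1.55 (Onecut2).

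**Figure D4:**
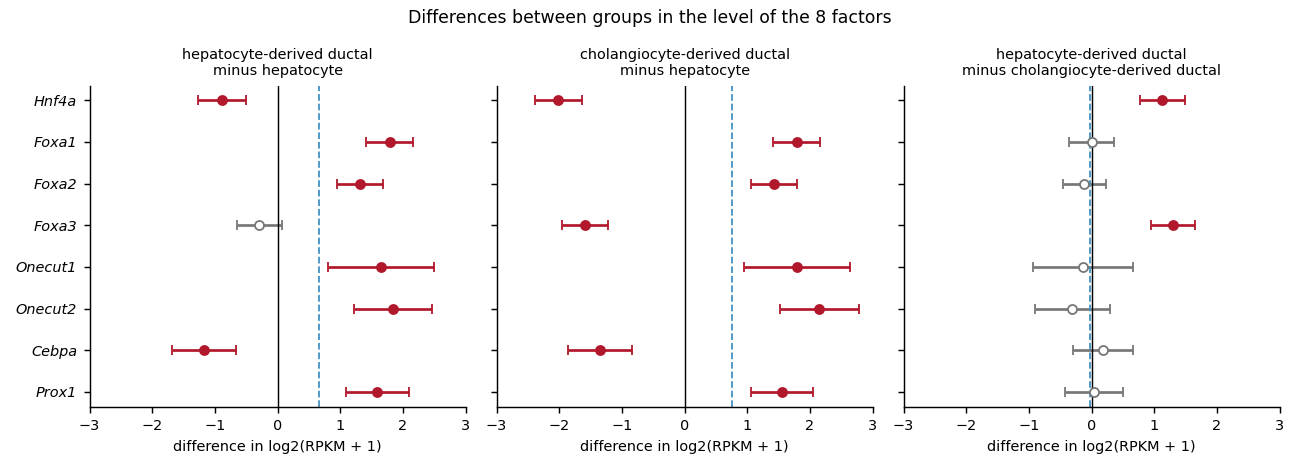
Difference in log2(RPKM + 1) of each member (horizontal axis) in the 3 comparisons, with 95% intervals. Filled points passed an adjusted p of 0.05, open ones did not, and the dashed line is the median of all tested genes (0.67, 0.76 and -0.029). Hnf4a and Cebpa lie left of 0 against hepatocytes in both ductal groups, and only Hnf4a and Foxa3 stand off 0 between the ductal groups.

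The order of the factors by level differed between populations. Hepatocytes were led by Hnf4a and Cebpa, whose ranges overlapped, and Cebpa lay clear of the next, Foxa3 (35.7 ± 7.64 RPKM). From Foxa3 down to Foxa1 (7.79 ± 2.40) each neighbour overlapped the next. In hepatocyte-derived ductal cells the order was Hnf4a, Cebpa (92.0 ± 41.6), Prox1 (65.5 ± 8.39), Onecut1 (41.9 ± 11.1), Onecut2 (37.7 ± 7.40), Foxa2 (34.5 ± 5.13), Foxa3 (28.9 ± 5.80) and Foxa1 (28.8 ± 5.15). Only Prox1 and Onecut1 were neighbours without overlap there.

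In cholangiocyte-derived ductal cells Cebpa (76.2 ± 12.5 RPKM), Prox1 (66.6 ± 24.2), Hnf4a, Onecut2 (47.2 ± 11.4) and Onecut1 (46.7 ± 14.4) formed a chain of overlapping ranges, followed by Foxa2 (37.2 ± 3.25). Foxa1 (28.7 ± 3.74) lay below all Foxa2 values and Foxa3 (11.1 ± 1.99) below all Foxa1 values. The 8 genes together summed to 537 RPKM in hepatocytes, 459 in hepatocyte-derived and 372 in cholangiocyte-derived ductal cells.

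Other regulators of the network differed as well. Of 13 tested regulators of ductal cells and liver progenitors, all 13 were higher in both ductal populations than in hepatocytes, with medians of 2.69 and 3.57. The shares of all tested genes that were higher were 66.2% and 67.1%. Median-ratio rescaling left 12 of 13 called higher in each, and quantile normalization left 10 and 11, without Elf3, Grhl2 and Hey1 in hepatocyte-derived and without Hey1 and Yap1 in cholangiocyte-derived ductal cells. Sox9, the biliary factor, stood at 92.4 ± 15.4 and 103 ± 29.1 RPKM against 7.89 ± 4.12. Sox4, a related progenitor factor, was higher by 4.83 and 4.46, Gata6 by 3.05 and 3.57, Tead4, a DNA-binding partner of YAP, by 2.69 and 2.48, and the epithelial factor Ehf by 4.68 and 6.60. Between the ductal groups 21.0% of all tested genes were lower in hepatocyte-derived cells and 15.1% higher. Of the 13 regulators 6 were lower and none higher (median -0.52), though some alternatives called 1 or 2 higher, with quantile normalization 2. The largest of these, chosen after their values were seen, were the epithelial factors Grhl2 (-3.77), Klf5 (-2.64) and Ehf (-1.93) and the Notch target Hes1 (-1.71, and -1.49 with an adjusted p of 0.0589 among only the libraries that share 1 column header style).

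Of 22 partner regulators of hepatocytes, 9 were higher and 10 lower in the hepatocyte-derived ductal population than in hepatocytes (median -0.027), and 8 were higher and 11 lower in cholangiocyte-derived ones (median -0.39), but quantile normalization gave 5 higher and 9 lower, and 5 and 12. Of all tested genes 66.2% were higher and 14.8% lower in the first comparison and 67.1% and 17.4% in the second. Nr1i3, the constitutive androstane receptor, was lower by -4.29 and -3.88. The nuclear factor I genes Nfib and Nfia were higher, by 1.98 and 1.65 in hepatocyte-derived and by 2.41 and 1.17 in cholangiocyte-derived cells, as was Zhx2, a zinc finger homeobox repressor (1.66 and 1.18), though quantile normalization left Nfia of cholangiocyte-derived cells at 0.20 (adjusted p = 0.0519). Between the ductal groups 9 were higher in hepatocyte-derived cells, 3 lower and 10 not called, against 15.1% higher and 21.0% lower of all tested genes. With the library number as a block, fitted without both 220 libraries, 6 were higher. Nr0b2 (adjusted p = 0.116), Nr1i2 (0.0592) and Nr3c1 (0.197), all nuclear receptors, fell short. The same 12 libraries without the block also left Nr0b2 (0.0585) and Nr3c1 (0.0923) short. Creb3l3 differed most between the ductal groups with all libraries, at 113 ± 22.3 against 19.2 ± 8.35 RPKM (2.59). It is a liver transcription factor anchored in the endoplasmic reticulum and was chosen after its values were seen.

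Of 17 tested paralogs of the members, 11 were higher, 3 lower and 3 not called in hepatocyte-derived ductal cells against hepatocytes (median 0.88), and 12, 3 and 2 in cholangiocyte-derived ones (median 0.57), but quantile normalization gave 6 higher and 7 lower, and 7 and 7. The shares higher are near those of all tested genes (66.2% and 67.1%), of which 14.8% and 17.4% were lower. The forkhead gene Foxj1, which drives motile cilia, was higher by 5.52 and 6.07. Foxp4 was higher by 2.09 and 2.13, Foxp1 by 1.93 and 2.19, and Foxk2 by 0.92 and 1.21, the first of which quantile normalization took to 0.041 (adjusted p = 0.670). Between the ductal groups 3 were higher and 6 lower in hepatocyte-derived cells, against 15.1% and 21.0% of all tested genes. With the library number as a block 2 were higher and 4 lower. Only 1 was still called higher without hepatocyte-derived library 219, where Cebpe (adjusted p = 0.101) and Foxo1 (0.0556) fell short, and without cholangiocyte-derived library 225 (0.0549 and 0.0502). Among the 6 lower ones was Foxj1 (-0.55, adjusted p = 0.0191, and -0.45 with an adjusted p of 0.111 with the library number as a block).

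Genes listed here as targets of Hnf4a were lower in the ductal groups than in hepatocytes: 19 of 19 in hepatocyte-derived (median -2.83, and 16 of 19 with quantile normalization) and 19 of 19 in cholangiocyte-derived ductal cells (median -4.12), where 14.8% and 17.4% of all tested genes were lower. In hepatocyte-derived cells Serpina1e barely passed (-2.05, adjusted p = 0.0496). It fell short under many alternatives, as with a pseudocount of 0.1 (0.0647) and without hepatocyte library 118 (0.158). Between the ductal groups 9 were higher in hepatocyte-derived cells, none was lower and 10 were not called (median 0.99), against 15.1% higher and 21.0% lower of all tested genes. Mttp, which loads lipid onto apolipoprotein B, stood at 117 ± 14.3 RPKM in hepatocytes, 23.1 ± 3.49 in hepatocyte-derived and 6.77 ± 1.65 in cholangiocyte-derived ductal cells, a ductal difference of 1.65 (adjusted p = 1.22e-06). The apolipoprotein Apoc2 was 840 ± 120, 119 ± 29.0 and 49.6 ± 13.7 RPKM (1.26, adjusted p = 1.73e-04). Ttr, the thyroid hormone carrier transthyretin, was 3278 ± 444, 706 ± 150 and 463 ± 38.9 (0.59, adjusted p = 0.00343). Apoa4, in contrast, was 304 ± 54.3, 10.2 ± 4.83 and 7.54 ± 3.40, with no call between the ductal groups (0.38, adjusted p = 0.378).

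The wide spread within this list is shown by genes chosen after their values were seen. The coagulation factor genes F9 and F12 were higher in hepatocyte-derived than in cholangiocyte-derived ductal cells by 2.68 and 2.70, while Apoa2 differed by -0.28 (adjusted p = 0.770) and Cyp7a1 by -0.26 (adjusted p = 0.631). The summed hepatocyte markers, mostly Alb, were also higher in hepatocyte-derived ductal cells, in all 5 libraries against all 5. Of the single markers, Apob, Ttr, Tat, Fah and Serpina1c were higher there without overlap, while Alb, Apoa1 and Ass1 overlapped. Cps1 and Cyp2e1 overlapped too and had lower medians there (27.0 against 34.2 and 14.4 against 28.1 RPKM). Apoa1, Apob, Ttr and Tat stand both in that marker list and among the targets of Hnf4a. The part of hepatocyte RNA in these differences was not tested.

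The target lists of the other factors overlap with that of Hnf4a (Ttr, Tat, Pck1, G6pc, Apob and F9 recur), so they are not separate evidence. Of all tested genes 14.8% were lower in hepatocyte-derived and 17.4% in cholangiocyte-derived ductal cells than in hepatocytes. Between the ductal groups 15.1% of all tested genes were higher in hepatocyte-derived cells. Of 9 tested targets of the Foxa factors, 8 were lower and none higher in both ductal groups (medians -2.29 and -4.05), with Afp, the fetal albumin relative, not called in either. Alb, the main plasma protein, was lower by -2.96 and -3.62, and Cps1, which starts the urea cycle, by -5.00 and -5.44. Between the ductal groups 5 of 9 were higher in hepatocyte-derived cells, among them Alb (0.66, adjusted p = 0.0359). Alb fell short there under several alternatives, with an adjusted p of 0.0535 after median-ratio rescaling and 0.838 after quantile normalization. All 12 targets of Cebpa were lower in both ductal groups (medians -3.71 and -4.38), among them Ugt1a1, the bilirubin glucuronosyltransferase (-3.71 and -4.05), and Hamp, the iron hormone hepcidin (-3.72 and -4.28). Of the 12, 4 were higher in hepatocyte-derived than in cholangiocyte-derived ductal cells, Alb again among them. Quantile normalization left Tat, a target in both lists, uncalled in hepatocyte-derived ductal cells against hepatocytes (-0.94, adjusted p = 0.108).

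Against hepatocytes, 66.2% of all tested genes were higher and 14.8% lower in hepatocyte-derived, and 67.1% and 17.4% in cholangiocyte-derived ductal cells. Of 8 targets of the Onecut factors, 1 was higher and 7 were lower in both ductal groups. The 1 was Foxa2, itself a member, and the 7 included the bile acid 12-alpha-hydroxylase gene Cyp8b1 (-3.95 and -3.76), G6pc, the glucose-releasing phosphatase (-3.94 and -4.50), and Hnf4a itself. Quantile normalization left Hnf4a (-0.45, adjusted p = 0.0523) and Slc2a2, another of the 7 (-0.33, adjusted p = 0.172), uncalled in hepatocyte-derived ductal cells. Of 5 genes repressed with Prox1 as corepressor, 4 were lower and 1 was higher in both ductal groups. Cyp7a1, which starts bile acid synthesis from cholesterol, was lower by -4.58 and -4.32 and Pck1, of gluconeogenesis, by -3.70 and -4.70, while Nr5a2, a nuclear receptor that activates Cyp7a1, was higher by 1.23 and 1.25.

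**Figure D5:**
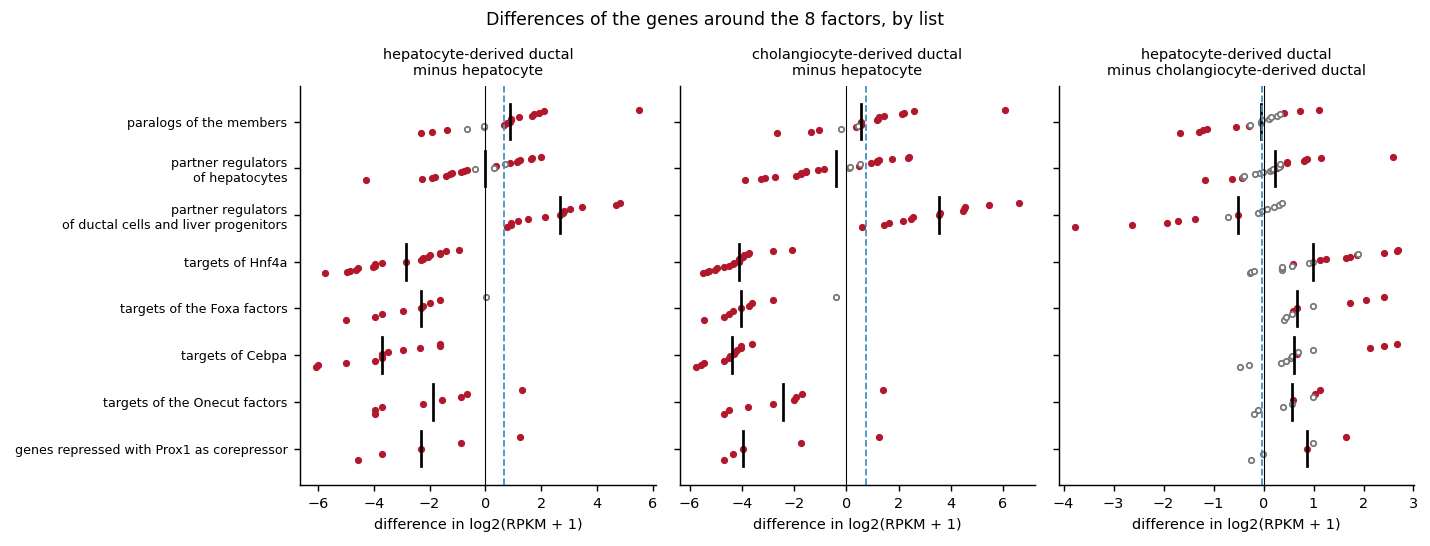
Differences in log2(RPKM + 1) of single genes (points) in 8 gene lists around the factors, for the 3 comparisons. Filled points passed an adjusted p of 0.05, black ticks are list medians and the dashed line is the median of all tested genes. Most genes of the target lists lie left of 0 against hepatocytes in both ductal groups, all 13 ductal regulators lie right of 0, and between the ductal groups the Hnf4a target list has a median of 0.99.

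For each member, the genes with the nearest profile were taken over the 14 libraries, as the smallest root mean square difference in centred log2(RPKM + 1) among 9814 genes that averaged 5 RPKM or more. Nearest to Hnf4a were Tmprss6, a hepatocyte serine protease that lowers hepcidin (0.13, with 228 ± 14.7, 126 ± 21.3 and 58.3 ± 7.64 RPKM in hepatocytes, hepatocyte-derived and cholangiocyte-derived ductal cells), and the matrix metalloproteinase Mmp19 (0.13). Foxa3 was nearest to Ifi27l2b (0.22) and the death receptor gene Fas (0.22). Cebpa was nearest to Gpr146 (0.23) and Soat2, an enzyme of cholesterol esterification (0.24).

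Among the factors that were higher in ductal cells, Foxa1 lay nearest to Bcl7a (0.13) and Epc1 (0.17) and Foxa2 to Akap8l (0.13) and Neurl4 (0.16). Onecut2 lay nearest to Cgn, the tight junction protein cingulin (0.22), and Glcci1 (0.22), and Prox1 to Atf7 (0.21) and Mapk8ip3 (0.21). Onecut1 had the farthest neighbours, Dopey2 (0.35) and Cul9 (0.37). The members' own SD over the 14 libraries was 0.69 (Foxa2) to 1.04 (Onecut2) on this scale. These likenesses carry no test.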

How the data were processed

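The data are 1 table of RPKM that the authors deposited, given to 2 decimals, in which 26005 transcripts are rows and the 14 libraries are columns. The submitters' processing notes name mm9, Bowtie 0.12.7 and CASAVA. The counting step is not given in the sources used here. RNA (75 to 200 ng) was prepared with a TruSeq RNA kit, version 2, per the labels' protocols. Strand is not marked by this kit, so antisense reads cannot be told apart.

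Of the 14 columns, 12 matched the title of 1 sample. The other 2 carry the number 220 where the titles left carry 120, and were matched to their group only. Fits with the library number as a block left these 2 out. The design text names 3 hepatocyte samples, and 4 were in the table. No pair of libraries shared more than 0.467% of values above 1 RPKM. Depth was estimated from the steps between low values of short single-exon rows (100 to 600 nt).

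On log2(RPKM + 1), limma 3.58.1 (R 4.3.3) was fitted with 3 groups, all 14 libraries and a mean-variance trend, two-sided, Benjamini-Hochberg adjusted over 12638 symbols, called under 0.05. Fold changes on this scale understate those of low genes, and a fold written as N-fold is a ratio of mean RPKM. The fit was tested on simulated data. Shares were compared by exact permutation tests (scipy 1.17.1).

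The numbers in the titles were checked for pairing by the correlation of deviations from group means. All 3 pairs exceeded 0.1 between the ductal groups (0.212 to 0.797) and between cholangiocyte-derived ductal cells and hepatocytes (0.133 to 0.512), but 2 of 3 between hepatocyte-derived ductal cells and hepatocytes (0.0208 to 0.193). Of the 12 libraries matched to a title, 9 correlated best, among libraries of other groups, with one of the same number. Libraries of the same number also share a column header style, and these correlations do not separate number from style. The main fit did not use the numbers. Nothing in the labels says what the numbers mark.

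The members and all lists were chosen with earlier results of these data known. Named genes are the 8 members, Cebpb and Sox9, the 2 nearest profiles of each member, and up to 4 genes per list with the smallest adjusted p in hepatocyte-derived ductal cells against hepatocytes. Others are marked as chosen after their values were seen. Some list genes and 1 of the 4 shares tested are not reported here, and the lists are counted without them. Alternatives tried were another pseudocount, filter, scaling, row choice, library weights, the block, and leaving out libraries. Those on header style, on libraries with other cells and on equal summed RPKM were chosen after seeing the data.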

Additional observations from a re-analysis of the deposited data

Results flagged for a closer look

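In 39 groups of 4 or 5 values for members, network genes and shares, 2 held a library whose gap to its neighbour was large against the range of the group (Dixon's test at the 95% level); chance flags about 1 group in 20. Onecut2 was 24.74 RPKM in hepatocyte-derived ductal library 220, where the next lowest was 39.02 and the highest 42.98. Prox1 was 79.95 RPKM in hepatocyte-derived ductal library 248, where the next highest was 64.54 and the lowest 59.56.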

How the results depend on the processing

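Of 720 values of member log2 fold changes under 30 alternatives, 709 stayed on the same side of the threshold, 2 fell short of it, 9 newly passed it and none reversed while called; those that crossed are the values of Hnf4a, Foxa3, Onecut1 and Onecut2 given in the report, with Foxa3 of hepatocyte-derived ductal cells against hepatocytes also at -0.41 with the replicate block (adjusted p = 0.00942) and -0.34 with header style as a term (adjusted p = 0.0423). The block changed no other member call. Counts over all genes moved by more than 1.5 times as follows, and the causes were not tested. Hepatocyte-derived ductal cells against hepatocytes gave 5462 higher and 3925 lower with median-ratio rescaling and 4596 and 4136 with quantile normalization. Cholangiocyte-derived ductal cells against hepatocytes gave 8475 higher and 2195 lower, and 4053 lower with median-ratio rescaling and 4891 higher and 4769 lower with quantile normalization. From cholangiocyte-derived to hepatocyte-derived ductal cells 1913 were higher, and 3069 with quantile normalization and 2987 with library weights. The number of members called lower between the ductal groups was 1 in place of 0 (Onecut2) with the replicate block, without the 3 libraries with other cells and with only the second header style.

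The 3 Foxa3 share differences called with all libraries kept their directions, but with fewer libraries the smallest p of the exact test is larger. Leaving out 1 library put the Foxa3 share differences at -34.4 to -27.6 percentage points (hepatocyte-derived against hepatocytes), -51.3 to -44.4 (cholangiocyte-derived against hepatocytes) and 16.3 to 17.6 (between ductal groups). Adjusted p was then 0.0476 to 0.0857, and the differences lost their call in 13, 14 and 13 of these 14 fits. Without the 3 libraries with other cells the Foxa3 shares differed by -27.6, -44.6 and 17.0 (adjusted p = 0.107 to 0.200). With only the second header style these were -27.2, -46.0 and 18.9 (adjusted p = 0.400). Depth did not limit the members, which all stood at 4.01 RPKM or more in every library.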
